A study of Mus musculus with 9 samples.

Results

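A set of 10 Notch pathway genes was followed in sorted mouse stromal cells from Grem1 conditional knockouts and their controls: the receptors Notch1, Notch2 and Notch3, the ligand Jag1, the transcriptional coactivator Maml2, and the target genes Hes1, Hey1, Hey2, Heyl and Nrarp. They were chosen by name, and all 10 of 10 were matched by Entrez ID among the 27179 gene IDs measured. Polyadenylated RNA was sequenced from cells of the fibrous tissue that forms around a tibial implant, harvested 2 weeks after surgery. The cells were sorted as negative for lineage markers and positive for tdTomato, a red fluorescent protein that marks cells, and descendants of cells, in which Cre recombinase had been active. All 9 libraries came from mice given tamoxifen and carrying Lepr-CreERT, an inducible Cre driven by the leptin receptor gene, with Tdtomato. The 4 control libraries had these alleles alone (Cre-only littermates), and the 5 Grem1-cKO libraries also had Grem1fl/fl, so that Cre could delete Grem1, which encodes gremlin 1, a secreted protein that binds bone morphogenetic proteins (BMPs) and blocks them. The labels give neither age nor sex, and nothing in them says that no mouse gave more than 1 library, so that the p-values below measure the spread between libraries.

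Notch receptors are single-pass membrane proteins that are activated by ligands of the Jagged and Delta-like families on a neighbouring cell. Ligand binding exposes the receptor to cleavage by ADAM metalloproteinases and then by gamma-secretase, and the freed intracellular domain joins the DNA-binding protein RBPJ and a Mastermind-like coactivator to switch on genes of the Hes and Hey families, which encode basic helix-loop-helix repressors. In the skeleton the pathway is known to hold marrow stromal progenitors back from osteoblast differentiation. It also acts in blood vessels, where endothelial cells use Notch1, Notch4 and Dll4 and mural cells use Notch3, and in muscle, where it keeps satellite cells (muscle stem cells) quiescent. Hey1 is also known as a gene induced by BMP signalling.

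The libraries held 43.5 to 87.2 M reads, with knockout replicates 1 to 4 at or above 76.3 M and all others at or below 53.4 M. Values are normalized counts, that is, reads per gene divided by a size factor per library, and fold changes are limma differences of log2(normalized count + 1). Grem1 itself had 356 to 736 in controls and 46.4 to 133 in knockouts (log2 fold change -2.72, SE 0.43, adjusted p = 0.00781). Of the defining stromal genes, Lepr ranged from 935 to 40594 in controls and 1347 to 15785 in knockouts, and Cxcl12 and Kitl were above 0 in every library. Despite the lineage-negative sort, the endothelial gene Pecam1 had 1242 to 47308 in controls and 233 to 1589 in knockouts, with 38993 and 47308 in controls 1 and 3, and the pan-leukocyte gene Ptprc reached 3674 in knockout 2. Skeletal muscle genes were higher in every knockout than in every control for 14 of 14 list members, which held for 6.82% of all genes. Their summed levels were 383 to 2418 in controls and 91878 to 809065 in knockouts. In sorted bulk samples like these, fewer cells of a type and less RNA per cell cannot be told apart.

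Of the 10 Notch genes, Hes1 and Hey1 rose and Nrarp and Maml2 fell in the knockout (limma adjusted p under 0.05 over the 15832 genes tested). Over all genes, 4.61% rose, 2.87% fell and 7.48% passed in either direction. All 10 genes passed the filter on low values (at least 10 normalized counts in at least 4 libraries), with at least 42 recovered reads in every library. The median log2 fold change was 0.18 over the 10 genes and -0.00391 over all genes tested. For Nrarp and Maml2 the knockout and control ranges did not overlap, which held for 11.4% of all genes. With knockout replicate 5 set aside, the other 4 knockouts were clear of every control for 5 genes (Hes1, Hey1, Heyl, Nrarp and Maml2), against 27.5% of all genes. The same 4 knockouts had the most reads, at or above 76.3 M against at most 53.4 M in all other libraries. Depth and this split of the libraries cannot be told apart. All 4 calls lay close to the threshold: leaving out any 1 library other than knockout 5 ended each of them (adjusted p of 0.0539 to 0.108 for Hes1, 0.0788 to 0.115 for Hey1, 0.0569 to 0.0863 for Nrarp and 0.0569 to 0.113 for Maml2), with 2.38% to 4.23% of all genes still passing.

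**Figure D1:**
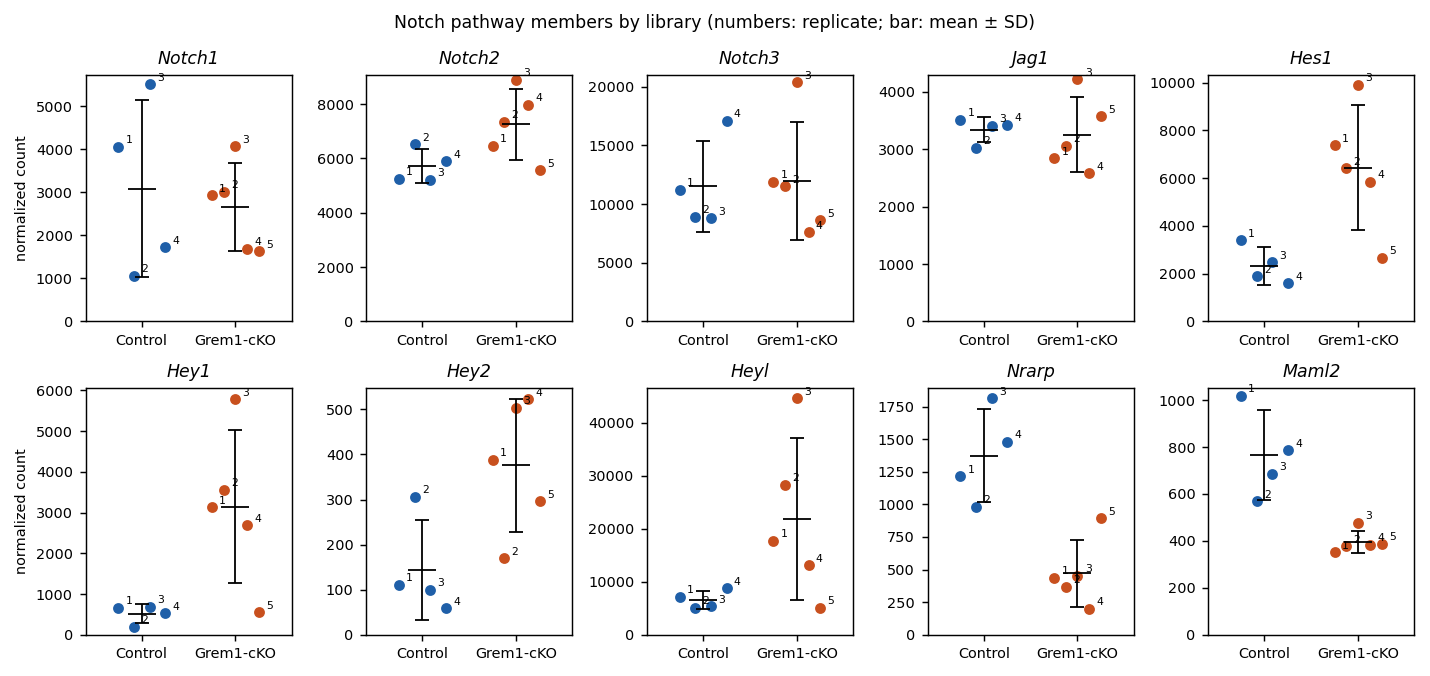
Normalized counts (y axis, from 0) of the 10 Notch genes in each library, 4 controls (blue) and 5 Grem1-cKO (orange), labelled by replicate number, with the group mean ± SD in black. Knockouts 1 to 4 lie above every control for Hes1, Hey1 and Heyl and knockout 5 does not, and all 5 knockouts lie below every control for Nrarp and Maml2.

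The receptors did not pass the test. Notch3, the receptor best known from mural cells, had the highest level per kilobase, as given below. Notch3 had normalized counts of 11217, 8896, 8781 and 17099 in control replicates 1 to 4, and of 11909, 11507, 20362, 7587 and 8618 in knockout replicates 1 to 5. The groups overlapped and the highest library of each (control 4 and knockout 3) stood well above the others (log2 fold change 0.03, SE 0.30, adjusted p = 0.963, 95% interval -0.63 to 0.68). Notch2 had normalized counts of 5249, 6515, 5202 and 5899.6 in control replicates 1 to 4, and of 6458, 7346, 8895, 7979.8 and 5555 in knockout replicates 1 to 5. Notch2, a broadly expressed receptor, was above every control in 3 of 5 knockouts, and knockout 5 lay within the control range (log2 fold change 0.33, SE 0.15, adjusted p = 0.188, 95% interval -0.0017 to 0.66). Without knockout 5 the difference in Notch2 passed, at 0.42 (limma adjusted p = 0.043, where 12.4% of all genes passed as higher).

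Notch1 had normalized counts of 4056, 1059, 5512 and 1727 in control replicates 1 to 4, and of 2934, 3010.4, 4067, 1691 and 1630.4 in knockout replicates 1 to 5. Notch1, used by endothelial cells among others, was thus higher in controls 1 and 3 than in controls 2 and 4, and every knockout lay within the control range (log2 fold change -0.01, SE 0.48, adjusted p = 0.99, 95% interval -1.07 to 1.05). The direction was not stable: it was 0.89 with controls 1 and 3 left out together (adjusted p = 0.252) and -0.63 for knockout 5 alone against the controls. Notch4, a receptor known mainly from endothelium, had 3530.4 and 4289 in controls 1 and 3, 229 and 143 in controls 2 and 4, and 64 to 428 in knockouts (log2 fold change -2.72, SE 1.07, adjusted p = 0.137). DESeq2 on recovered reads called Notch4 lower (-3.63, adjusted p = 0.000887). The defining endothelial markers followed the same split of the controls, with Cdh5 at 7249 and 7265 against 181 and 249, and Kdr at 14009.5 and 17585 against 459 and 492. Of 16 endothelial genes 3 fell and 0 rose, where 2.87% of all genes fell and 4.61% rose. Of their log2 fold changes 15 were below 0 (median -3.25), and 13 had an unadjusted limma p under 0.05, against 26.9% of all genes. Their summed level was 10256 to 239655 in controls and 7777 to 13052 in knockouts. Their mean log2(normalized count + 1) was 8.82 to 13.30 in controls and 6.11 to 8.81 in knockouts. Pecam1, Cdh5 and Kdr were at 0 in no library. The part of endothelial RNA in the Notch1 and Notch4 values was not tested.

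Per kilobase of the longest protein-coding transcript, the normalized count of Notch3 was 1434 ± 486 in controls and 1497 ± 627 in knockouts (SD, n = 4 and 5). That of Notch2 was 544 ± 59.1 in controls and 690.2 ± 124 in knockouts, and that of Notch1 was 326 ± 218 in controls and 281 ± 108 in knockouts. Notch3 exceeded Notch2 in 9 of 9 libraries and Notch2 exceeded Notch1 in 8 of 9, control 3 being the exception. Notch1 exceeded Notch4 in 7 of 9, with the reverse in controls 1 and 3. Notch3 made up 38.8% to 73.6% of the level per kilobase of the 4 receptor genes in controls and 49.9% to 66.2% in knockouts, so that the ranges overlapped. Among the mural genes that mark the cells best known for Notch3, Rgs5 had 3757 to 7347 in controls and 2027 to 4082 in knockouts (log2 fold change -0.82, SE 0.25, adjusted p = 0.0681, and 0.0231 with DESeq2 on recovered reads), Myh11 7398 to 12086 in controls and 1624 to 7189 in knockouts and Kcnj8 1189.7 to 5289 in controls and 2142 to 10444 in knockouts. Of 12 mural genes 1 rose and 3 fell, where 4.61% of all genes rose and 2.87% fell. Of their log2 fold changes 9 were below 0 and 3 above (median -0.59). The groups did not overlap for 4 of the 12, against 11.4% of all genes. Their summed level was 114279 to 171921 in controls and 99450.1 to 118929 in knockouts. None of Rgs5, Myh11 and Kcnj8 was at 0 in any library. The part of mural cell RNA in the Notch3 level was not tested.

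The ligand Jag1 spanned the least of the 10 genes over the 9 libraries (0.71 log2 units). Jag1 had normalized counts of 3514, 3025, 3406 and 3419 in control replicates 1 to 4, and of 2839, 3059, 4217, 2579 and 3572 in knockout replicates 1 to 5. The knockouts spread to both sides of the narrow control range, and no difference was found (log2 fold change -0.06, SE 0.15, adjusted p = 0.834, 95% interval -0.40 to 0.28). Of the other ligands, Jag2, Dll1 and Dll4 were split between controls in the manner of the endothelial genes. Dll4, the Delta-like ligand of vessel sprouting, had 2945 and 2923 in controls 1 and 3, no read in controls 2 and 4 (which allows at most 4.14 and 4.19, from 3 reads), and at most 70.1 in knockouts (log2 fold change -1.95, SE 2.74, adjusted p = 0.68). Jag2 had 1390.3 and 2308 against 22.1 and 79.6 in controls, and 0 to 189 in knockouts (log2 fold change -2.48, SE 1.82, adjusted p = 0.414). Dll1 ranged over 33.5 to 1162 in controls and 203 to 1345 in knockouts (log2 fold change 1.24, SE 1.10, adjusted p = 0.5). Jag1 exceeded Jag2, Dll1 and Dlk1 per kilobase in 9 of 9 libraries and Dll4 in 7 of 9. Dll3 had no read outside knockout 1.

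The non-canonical ligand Dlk2 passed as the only other receptor or ligand gene in limma, where DESeq2 on recovered reads called Dlk2 and Notch4 lower. Dlk2 had normalized counts of 126, 302, 87.2 and 187 in control replicates 1 to 4, and of 7.36, 15.5, 20.3, 21.7 and 0 in knockout replicates 1 to 5. Every knockout lay below every control (176 ± 93.9 (SD, n = 4) in controls and 13 ± 9.17 (SD, n = 5) in knockouts; log2 fold change -4.11, SE 0.99, adjusted p = 0.0377). Its paralog Dlk1, a secreted and membrane-bound inhibitor of adipocyte differentiation, had 650.3 to 2191 in controls and 229 to 1317 in knockouts and did not pass (log2 fold change -0.66, SE 0.53, adjusted p = 0.451). The Dlk2 call was lost without any 1 library other than knockout 5 (adjusted p 0.0529 to 0.102) and with edgeR on recovered reads (0.057).

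**Figure D2:**
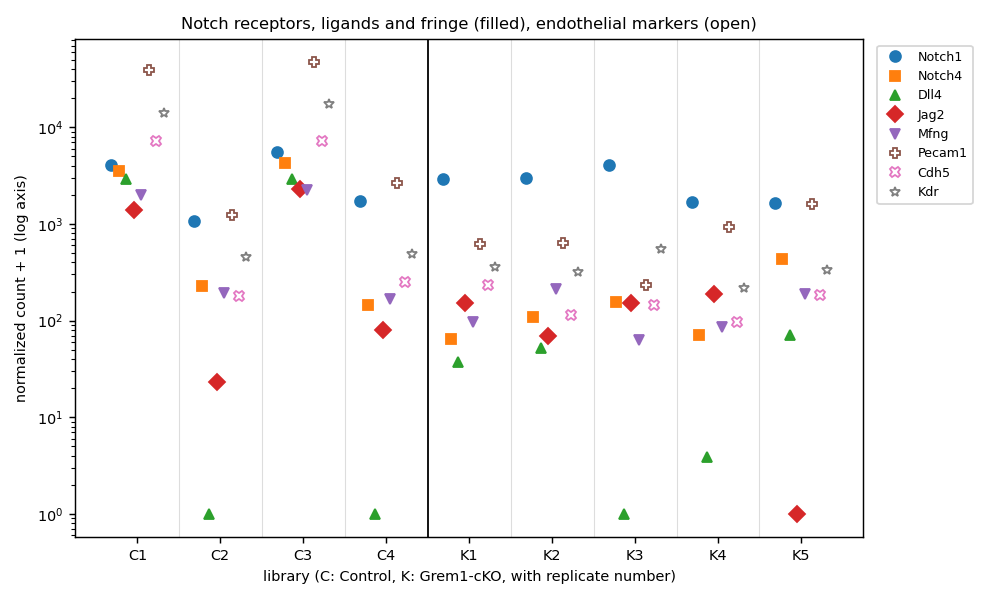
Normalized count + 1 (log axis) in each of the 9 libraries for Notch1, Notch4, Dll4, Jag2 and Mfng (filled) and for the endothelial markers Pecam1, Cdh5 and Kdr (open). All 8 genes are higher in controls 1 and 3 than in controls 2 and 4, and for 7 of them every knockout also lies below controls 1 and 3, whereas Notch1 in knockout 3 (4067) lies within the range of those libraries.

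Among the target genes, Hes1 and Hey1 rose, and the values of Heyl and Hey2 were higher in most knockouts without passing. Hes1 had normalized counts of 3393, 1889.8, 2477 and 1599 in control replicates 1 to 4, and of 7377, 6413, 9925, 5839.6 and 2671 in knockout replicates 1 to 5. Hes1 encodes a repressor that answers to Notch in most tissues and also to other signals. Knockouts 1 to 4 lay above every control and knockout 5 within the control range, with 2339.6 ± 791 (SD, n = 4) in controls and 6445 ± 2626 (SD, n = 5) in knockouts, a 2.64-fold rise (log2 fold change 1.40, SE 0.35, adjusted p = 0.0439). Knockout 5 alone differed from the controls by 0.25 (adjusted p = 0.876; the lone knockout is assumed to vary like the controls), and without it the difference was 1.69 (adjusted p = 0.00224).

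Hey1 had normalized counts of 666, 193, 685 and 531 in control replicates 1 to 4, and of 3128, 3555, 5782, 2686 and 553 in knockout replicates 1 to 5. Hey1 had the largest difference of the 10 genes, 5.34-fold (519 ± 228 (SD, n = 4) in controls and 3141 ± 1874 (SD, n = 5) in knockouts; log2 fold change 2.42, SE 0.64, adjusted p = 0.0485, 95% interval 1.00 to 3.83). Knockout 5 again lay inside the control range, at a log2 difference of 0.25 from the controls (adjusted p = 0.934), and without it the difference was 2.96 (0.00178).

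Heyl had normalized counts of 7219, 5129, 5351 and 8779 in control replicates 1 to 4, and of 17732, 28263, 44615, 13138 and 5099 in knockout replicates 1 to 5. Heyl, a Hey-family repressor known from vascular smooth muscle and satellite cells, was 2.66-fold higher on the log2 scale and 3.29-fold by the ratio of means, and did not pass (log2 fold change 1.41, SE 0.52, adjusted p = 0.118, 95% interval 0.25 to 2.58). Its knockout values spanned 8.75-fold, from below every control in knockout 5 to 44615 in knockout 3. Heyl passed without knockout 5 (1.85, adjusted p = 0.00771) and with DESeq2 on recovered reads (adjusted p = 0.00474), and knockout 5 alone lay on the other side of the controls (-0.34, adjusted p = 0.789). Hey2 had normalized counts of 111, 306, 99.1 and 58.7 in control replicates 1 to 4, and of 389, 169.6, 503, 522 and 296 in knockout replicates 1 to 5. Hey2, known from arteries and heart, had the lowest mean count of the 10 genes in each group; knockouts 1, 3 and 4 lay above every control and knockouts 2 and 5 within the control range (log2 fold change 1.55, SE 0.53, adjusted p = 0.098, 95% interval 0.36 to 2.73).

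Per kilobase, Hes1 and Heyl were the main transcripts of this group, at 1594 ± 539 in controls and 4390.4 ± 1789 in knockouts for Hes1 and 1459 ± 379 in controls and 4798 ± 3366 in knockouts for Heyl (SD, n = 4 and 5). Their order changed between libraries, with Heyl above Hes1 in 3 of 9, whereas Hes1 exceeded Hey1 in 9 of 9 and Hey1 exceeded Hey2 in 8 of 9. Hey1 made up 3.04% to 8.86% of the 4 genes' level per kilobase in controls, 6.94% in knockout 5 and 12.1% to 13.5% in the other knockouts. The other BMP-responsive genes listed beside Hey1 did not pass: Id1 had 1342 to 2713 in controls and 1671 to 4679.8 in knockouts (log2 fold change 0.45, SE 0.33, adjusted p = 0.411). Of 12 such genes, Hey1 included, 1 rose and none fell (median log2 fold change 0.57). Yet 11 of the 12 log2 fold changes were above 0, against 49.7% of all genes. An unadjusted limma p under 0.05 was found for 4 of the 12, against 26.9% of all genes. Their summed level was 29800 to 43360 in controls, 51458 to 88557 in knockouts 1 to 4 and 32006 in knockout 5. The part of BMP signalling in the Hey1 value was not tested.

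Nrarp moved the other way. It encodes a small ankyrin-repeat protein that is induced by Notch and limits the pathway by promoting loss of the intracellular domain. Nrarp had normalized counts of 1216, 982, 1813 and 1478 in control replicates 1 to 4, and of 436, 366, 454, 200.1 and 894 in knockout replicates 1 to 5. Every knockout lay below every control, and knockout 5 was nearest to them (1372 ± 357 (SD, n = 4) in controls and 470 ± 257 (SD, n = 5) in knockouts). The level was 3.18-fold lower in the knockout (log2 fold change -1.67, SE 0.39, adjusted p = 0.0326, 95% interval -2.53 to -0.81). Knockout 5 alone differed from the controls by -0.58 (adjusted p = 0.688), and edgeR (quasi-likelihood, recovered reads) gave an adjusted p of 0.0514. Hes1 and Hey1 on one side and Nrarp on the other therefore passed in opposite directions, though all are known Notch targets.

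Maml2 encodes a Mastermind-like coactivator of the Notch nuclear complex. Maml2 had normalized counts of 1019, 568, 686 and 785 in control replicates 1 to 4, and of 351, 376, 476, 384 and 387 in knockout replicates 1 to 5. The 5 knockouts were close to each other and all below the lowest control (765 ± 191 (SD, n = 4) in controls and 395 ± 47.5 (SD, n = 5) in knockouts), a 1.9-fold lower level (log2 fold change -0.93, SE 0.23, adjusted p = 0.0437, 95% interval -1.45 to -0.41). Maml2 was the member on which knockout 5 (-0.95 against the controls) and the other 4 knockouts (-0.92) differed least from each other. The paralogs Maml1 (log2 fold change -0.10, SE 0.28, adjusted p = 0.843) and Maml3 (log2 fold change 0.82, SE 0.51, adjusted p = 0.328) did not pass, nor did Rbpj, the DNA-binding partner of every Notch receptor (2569.7 to 3203 in controls and 2284 to 3245 in knockouts; log2 fold change -0.12, SE 0.14, adjusted p = 0.63).

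**Figure D3:**
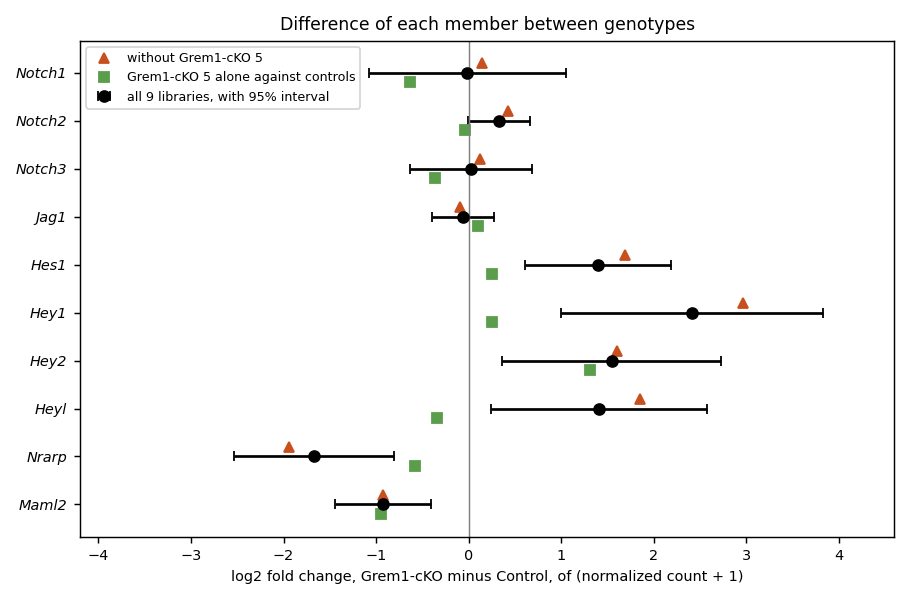
Log2 fold change (x axis, Grem1-cKO minus Control) of the 10 genes from all 9 libraries with its 95% limma interval (black), without knockout 5 (triangles) and for knockout 5 alone against the controls (squares). For Hes1, Hey1 and Heyl the squares lie at 0.25, 0.25 and -0.34, while for Maml2, Hey2 and Jag1 the 3 values lie close together.

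Promoter windows were matched for 7 of the 10 genes in RefSeq (build GRCm38.p6, which is not the mm39 build named for the counts). They are shown for the 2 members that fell and for Hey2, the Hey-family target with an entry, to set the letters upstream of the start beside the direction of each gene; only the 250 bases before the annotated start are printed, 5′ to 3′ along the gene. Capitals mark TGGGAA on either strand, the core recognised by RBPJ. It occurred in 21.6% of 32851 windows of the same length, and the longer form GTGGGAA, which contains it, in 5.42%. The Hey2 window (chr10:30842784-30843033, reverse strand) held 1 match, in the longer form and on the strand opposite to the gene, the Nrarp window (chr2:25180508-25180757, forward strand) held none, and of the 2 Maml2 windows the first (chr9:13297708-13297957, forward strand) held none and the second (chr9:13662210-13662459, forward strand) held 1 in the short form, also opposite to the gene. The windows of Notch1, Notch2, Notch3 and Jag1 held none. A match is a description of the letters only.
Hey2: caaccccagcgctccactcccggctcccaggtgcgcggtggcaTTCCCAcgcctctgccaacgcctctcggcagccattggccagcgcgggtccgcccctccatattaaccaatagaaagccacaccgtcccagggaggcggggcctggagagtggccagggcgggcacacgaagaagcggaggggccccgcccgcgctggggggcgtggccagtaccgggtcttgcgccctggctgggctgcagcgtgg
Nrarp: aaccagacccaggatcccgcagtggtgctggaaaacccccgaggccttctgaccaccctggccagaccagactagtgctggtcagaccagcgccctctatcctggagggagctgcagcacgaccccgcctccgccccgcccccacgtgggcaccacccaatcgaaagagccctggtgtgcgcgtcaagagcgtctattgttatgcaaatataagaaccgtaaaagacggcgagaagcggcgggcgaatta
Maml2 first start: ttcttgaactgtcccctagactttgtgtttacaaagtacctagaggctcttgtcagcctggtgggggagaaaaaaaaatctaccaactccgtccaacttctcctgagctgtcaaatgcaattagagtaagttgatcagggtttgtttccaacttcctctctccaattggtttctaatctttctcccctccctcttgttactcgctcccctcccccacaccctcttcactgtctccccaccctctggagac
Maml2 second start: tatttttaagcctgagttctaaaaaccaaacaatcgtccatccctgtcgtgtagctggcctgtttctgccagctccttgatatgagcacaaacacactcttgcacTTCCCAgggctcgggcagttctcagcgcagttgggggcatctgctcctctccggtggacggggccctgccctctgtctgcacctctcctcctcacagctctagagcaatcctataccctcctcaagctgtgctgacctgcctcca

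Most markers of satellite cells were, like Hey1 and Heyl, higher in knockouts 1 to 3 than in knockouts 4 and 5. Pax7, the transcription factor that defines these cells, had 16.2, 2.76, 10.8 and 2.79 in controls 1 to 4 and 789, 1696, 1928, 566 and 82 in knockouts 1 to 5. Among knockouts the order from highest to lowest was replicate 3, 2, 1, 4, 5 for Hey1, Heyl and Notch1, and 3, 1, 2, 4, 5 for Hes1. Of the 11 satellite cell genes, 6 had the order of Hey1 (Pax7, Myf5, Cdh15, Chodl, Vcam1 and Sdc4), 3 had 2, 3, 1, 4, 5 (Myod1, Calcr and Fgfr4), Musk had the order of Hes1, and Myog, highest in replicate 5, had 5, 2, 3, 1, 4. The share of all genes with each order was not counted, so a shared order is a description only. Of these 11 genes 9 rose and none fell (median log2 fold change 4.58), where 4.61% of all genes rose. Their summed level was 30723 to 42532 in controls and 37061 to 167494 in knockouts. The mean of log2(normalized count + 1) over the list, which weighs each gene alike, did not overlap. It was 6.54 to 8.92 in controls and 10.33 to 12.98 in knockouts. Vcam1 is also on the list of LEPR-positive stroma. The defining marker Myf5 was at 0 in control 2, Pax7 and Myod1 in no library. In controls Heyl had 5129 to 8779 with Pax7 at no more than 16.2, and knockout 5 had 5099 of Heyl with Pax7 at 82. Acta1, the actin of mature muscle, was highest in knockout 4 and lowest among knockouts in replicate 3. The part of satellite cell RNA in the Hes1, Hey1 and Heyl values was not tested.

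**Figure D4:**
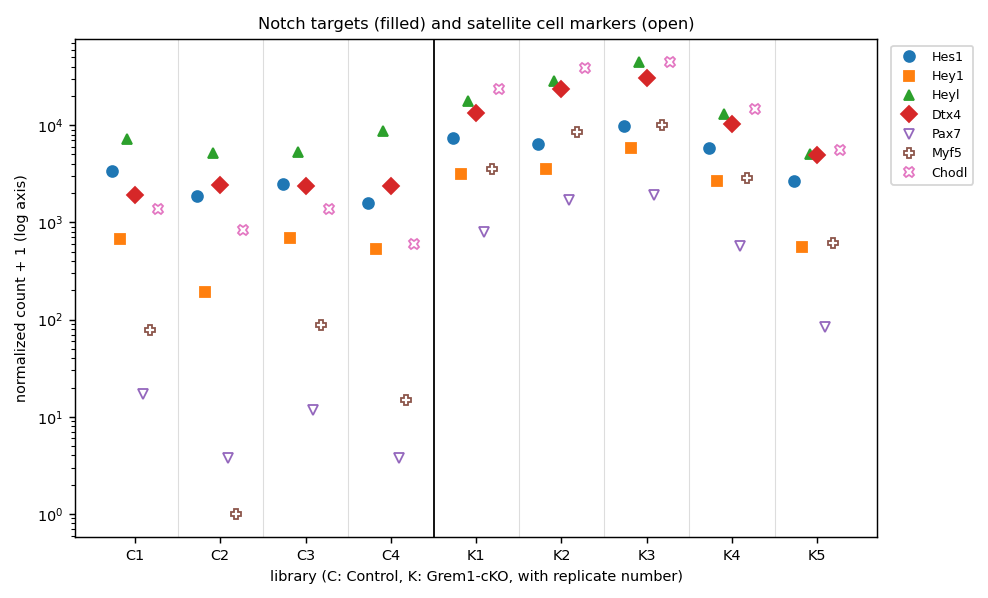
Normalized count + 1 (log axis) in each of the 9 libraries for Hes1, Hey1, Heyl and Dtx4 (filled) and for the satellite cell markers Pax7, Myf5 and Chodl (open). In knockouts all 7 genes are highest in replicate 3 and lowest in replicate 5, where Hey1 (553) and Heyl (5099) are at control level. The 3 markers plotted are among the 6 of 11 satellite cell genes that had the knockout order of Hey1. Myod1, highest in replicate 2, and Myog, highest in replicate 5, are not plotted.

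Beyond the 10 genes, 65 further pathway genes were measured, of which 60 passed the filter on low values. In all, 3 rose (Dtx4, Epn2 and Myc) and 3 fell (Furin, Dlk2 and Sox9), that is 6 of 60 where 7.48% of all genes passed. Their median log2 fold change was -0.05. Among 16 genes of ligand endocytosis and receptor turnover, 2 rose and 0 fell, with a median log2 fold change of 0.06. Dtx4 had normalized counts of 1901, 2397, 2359 and 2384 in control replicates 1 to 4, and of 13222, 23443, 30311, 10348 and 4947 in knockout replicates 1 to 5. Dtx4, a Deltex ubiquitin ligase that acts on Notch receptors, was higher in every knockout than in every control (6.08-fold; log2 fold change 2.60, SE 0.45, adjusted p = 0.0111), and among knockouts it had the order of Hey1 and Pax7. Epn2 (epsin 2), an adaptor for ligand endocytosis, rose 1.84-fold (2308 to 3051 in controls and 3863 to 6270.5 in knockouts; log2 fold change 0.88, SE 0.17, adjusted p = 0.0174), a call lost without control 2 (adjusted p = 0.053). Dtx1 did not pass (0, 45.5, 4.31 and 0 in controls and 175, 140, 143, 101 and 15.9 in knockouts; log2 fold change 4.52, SE 1.26, adjusted p = 0.0558).

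Among 7 genes of receptor glycosylation and processing, 0 rose and 1 fell, with a median log2 fold change of -0.77. Furin had normalized counts of 14301, 14766, 15662 and 14553 in control replicates 1 to 4, and of 8239, 5752, 8671, 5708 and 8701 in knockout replicates 1 to 5. Furin, the convertase that cuts the receptor on its way to the surface, was 2.04-fold lower and stood below every control in every knockout (log2 fold change -1.03, SE 0.16, adjusted p = 0.0068). Furin also processes many growth factor precursors, BMPs among them. Its call held with each single library left out (adjusted p at most 0.0234). The fringe gene Mfng, which extends the sugars on the receptor, followed the endothelial split of the controls (2009, 193, 2264 and 168 in controls 1 to 4; log2 fold change -2.42, SE 0.86, adjusted p = 0.105), and DESeq2 on recovered reads called it lower (adjusted p = 0.00067).

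None of 9 cleavage genes and none of 15 genes of the nuclear complex passed, with median log2 fold changes of 0.11 and 0.02. An unadjusted limma p under 0.05 was found for 1 of the 9 and 3 of the 15, against 26.9% of all genes. On recovered reads edgeR called none of them, and DESeq2 called 0 of the 9 and 3 of the 15. Adam10, which makes the first cut, had 6334 to 9751 in controls and 5371 to 7829.5 in knockouts (log2 fold change -0.35, SE 0.17, adjusted p = 0.203). Of the 12 further target genes listed, 8 passed the filter, 1 rose and 1 fell. Myc rose 1.8-fold, with 3029 to 3882 in controls and 4581 to 9134 in knockouts (log2 fold change 0.85, SE 0.19, adjusted p = 0.0301; with 1 library left out, 0.0065 to 0.0816). Sox9, a chondrocyte regulator, fell 2.76-fold (17110 to 24076 in controls and 4871 to 17153 in knockouts; log2 fold change -1.47, SE 0.33, adjusted p = 0.0285), with 17153 in knockout 5 and adjusted p of 0.0547 to 0.0773 without any 1 of the other libraries. Both are targets of several pathways. Of 12 cartilage genes, Sox9 itself included, 7 fell, where 2.87% of all genes did. Col2a1 had 770230 in knockout 5, against at most 133768 in the other knockouts and at least 1261370 in controls. The list's summed level was 2042890 to 4864130 in controls and 165047 to 1317670 in knockouts, Col2a1, Acan and Sox9 were at 0 in no library, and its part in the Sox9 value was not tested. Hes5, the Hes gene most used as a Notch readout in the nervous system, had at most 47.1 normalized counts in any library and was not tested.

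**Figure D5:**
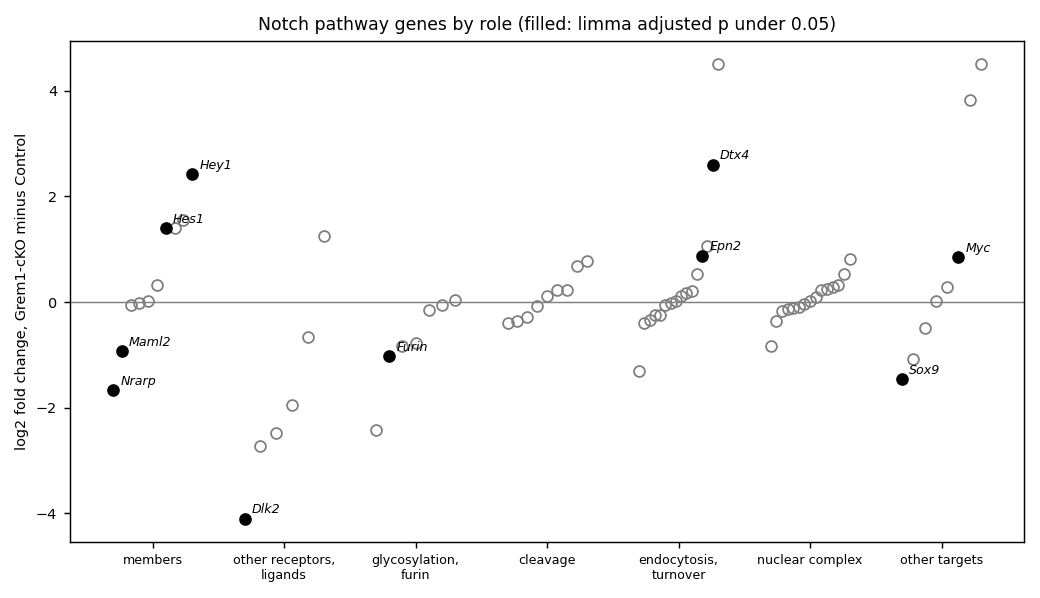
Log2 fold change (y axis, Grem1-cKO minus Control) of every tested Notch pathway gene, grouped by role; filled points, with names, passed at a limma adjusted p under 0.05. The 10 passing genes lie in 5 of the 7 groups, 5 above 0 and 5 below, and Dtx1 (4.52), which did not pass, is plotted in 2 groups.

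For the 6 members that spanned at least 2 log2 units over the 9 libraries, the most similar profiles were sought among 13377 genes with a mean of at least 50, by the root mean square difference of log2 values centred on each gene's mean. For Hes1 they were Bcl6, Cobl and Prxl2b (0.172 to 0.207), for Hey1 Map2, Vstm2b and Chrnb1 (0.303 to 0.413), for Heyl Iqgap2, Ptgds and Hoxb2 (0.277 to 0.344), for Hey2 Sgtb, Lgi4 and Mt2 (0.521 to 0.526), for Nrarp Ptma-ps2, Rgs16 and Gcnt2 (0.279 to 0.316), the first of them a pseudogene that may share reads with Ptma, and for Notch1 Ccdc141, Mmd and Grasp (0.273 to 0.296), where the median difference over all candidates was 0.864 to 1.63. Hes1 thus had the nearest neighbour, the repressor gene Bcl6, with 1643, 1059, 1391 and 833 in controls 1 to 4 and 3937, 3508, 4703, 3501 and 1047 in knockouts 1 to 5. The Hey1 neighbour Chrnb1, a subunit of the muscle acetylcholine receptor, had 462, 163, 331 and 238 in controls and 2118, 3615, 6109, 1474 and 378 in knockouts. The neighbours of Hey2 were the most distant of the 6 sets.

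The authors' deposited table, made with DESeq2 per the submitters' processing notes, gave log2 fold changes of 1.46 for Hes1, 2.60 for Hey1, 1.72 for Heyl, -1.55 for Nrarp and -0.95 for Maml2, with adjusted p of 0.00119, 0.000119, 0.00662, 0.00248 and 0.000401. In the authors' deposited table Heyl therefore passed in addition, and Hey2 had 1.39 with an adjusted p of 0.0603. That table called 10.5% of its genes higher and 6.63% lower.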

How the data were processed

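Libraries of polyadenylated RNA from 4 control and 5 Grem1-cKO samples were read as 150-base reads. STAR, featureCounts, DESeq2 and the mm39 build are named in the submitters' processing notes, with versions, annotation and strand setting not given in the sources used here. Without a known strand setting, reads of a gene and of an antisense neighbour cannot be told apart. The deposited matrix holds a signal that the authors made by dividing gene counts by 1 size factor per library. Within a library its values were whole multiples of the smallest value above 0 (tolerance 0.01) for all but 3 values, which recovered the reads behind them, and 3 reads set the limit that a count of 0 allows, for counting error only. The authors' deposited table holds log2 fold changes with their errors, a test score, and raw and adjusted p-values, per the file headers.

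Symbols were matched to Entrez IDs with a RefSeq gene table on GRCm38.p6 (25275 of 27179 IDs). The main test was limma 3.58.1 (R 4.3.3) with a mean-variance trend on log2(normalized count + 1), genotype only, two-sided, over 15832 genes with at least 10 normalized counts in at least 4 libraries, with Benjamini-Hochberg adjustment at 0.05. It was tested on simulated data with the same dispersion for every gene and no library set apart. That simulation cannot speak for genes of wider spread or for a library that stands apart. The 22 alternatives covered filters, pseudocounts, scaling, tests of the recovered reads (edgeR 4.0.16, DESeq2 1.42.0), library weights, a replicate block, each library left out, controls 1 and 3 left out together, and knockout 5 alone.

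Levels per kilobase used the longest protein-coding transcript of a GENCODE annotation on GRCm38, not the authors' build. Named were the 10 members, Grem1, Lepr, other receptors and ligands, passing pathway genes, defining markers, and the 3 genes of nearest profile; further genes were named after their values were seen. The members and lists were chosen with earlier results of these data known.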

Additional observations from a re-analysis of the deposited data

Results flagged for a closer look

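The named Notch pathway genes, Grem1 and Lepr, each in controls and in knockouts, made up 46 groups of 4 or 5 libraries. Of these, 3 held a library that stood apart from the rest by Dixon's criterion. Chance gives about 1 in 20. Dtx4, the Deltex ubiquitin ligase gene, was lowest in control 1, at 1901 normalized counts, where the other 3 controls lay close together. Sox9, the chondrocyte regulator, was highest among knockouts in replicate 5, at 17153. Notch4, the endothelial receptor, was highest among knockouts in replicate 5, at 428, which remained below controls 1 and 3.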

How the results depend on the processing

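The calls depended on which libraries were kept and on the test. Leaving out 1 library at a time gave 0 to 4 members higher and 0 to 2 lower, 2 to 9 other pathway genes higher and 1 to 5 lower, and 257 to 1963 of all genes higher and 120 to 1599 lower. The upper end of each range came without knockout 5. The same omissions carried the log2 fold change of Notch1 from -0.43 to 0.36, of Notch3 from -0.19 to 0.24, of Jag1 from -0.16 to 0.020 and of Lepr from -0.96 to 0.86. With controls 1 and 3 left out together, 280 of all genes were higher and 58 lower, with 0 members and 0 other pathway genes in either direction, and the log2 fold change was 0.89 for Notch1, -0.13 for Notch3, 0.21 for Jag2 and 3.81 for Dll4. For knockout 5 alone, 65 of all genes were higher and 18 lower, again with 0 members and 0 other pathway genes, and the log2 fold change was -0.035 for Notch2, -0.36 for Notch3, 0.10 for Jag1, -0.34 for Heyl, -2.54 for Lepr, 0.39 for Dll4 and 0.14 for Dlk1.

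Without a filter on low values, 0 members were higher and 1 was lower. With edgeR on recovered reads, 1 member, 1 other pathway gene and 270 of all genes were lower, 516 of all genes were higher, and Lepr was at -0.63. DESeq2 on recovered reads called 1567 of all genes higher and 972 lower, 5 other pathway genes higher and 7 lower, with Lepr at -0.61. Library quality weights gave 4 members higher, 9 other pathway genes higher and 6 lower, and 2237 of all genes higher and 1819 lower, with Notch1 at 0.21 and Notch3 at -0.033. Upper-quartile scaling put Notch1 at 0.0022. Same-numbered libraries did not clearly deviate together (correlation across genes 0.070, 0.017, -0.0062 and -0.011). With so few pairs this check cannot exclude that the numbers pair them. The replicate block, in which knockout 5 has no partner, gave 1 member lower, 5 other pathway genes higher and 6 lower, and 1508 of all genes higher and 1207 lower, with Notch1 at 0.14. The cause of these shifts was not tested. Over the 10 members and 22 alternatives, 151 of 220 fold changes kept their direction and their side of the threshold, 45 lost the call, 6 gained one and 18 changed sign. The member with the fewest reads, Hey2, had 42 or more in every library.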

Other observations

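Other cell type lists were counted beside those given with the results. Of all genes tested, 4.61% rose and 2.87% fell. Of 11 Schwann cell genes 6 rose and none fell, with summed normalized counts of 6147 to 11386 in controls and 18648 to 51117 in knockouts. Of 12 macrophage genes 1 fell, with summed normalized counts of 27779 to 61077 in controls and 6582 to 109484 in knockouts. The upper end was knockout 2, and the other 4 knockouts, at 6582 to 16729, lay below every control; 11 of the 12 log2 fold changes were below 0 (median -2.66). Of 13 genes of LEPR-positive stroma 1 rose, and of 10 fibroblast genes 3 rose. The summed levels of both lists overlapped between the groups. For LEPR-positive stroma they were 377581 to 726090 in controls and 304922 to 589204 in knockouts. The mean log2(normalized count + 1) of the fibroblast list did not overlap, at 15.47 to 15.91 in controls and 15.97 to 16.58 in knockouts. That of LEPR-positive stroma did, at 11.86 to 13.73 in controls and 11.27 to 13.16 in knockouts.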
